A study of Mus musculus with 12 samples.

Results

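A set of 9 TNF receptor superfamily genes was followed in cultured mouse peritoneal macrophages (PMs). They are *Tnfrsf19*, a receptor the paper names, and 8 receptors that macrophages are known to use: *Tnfrsf1a*, *Tnfrsf1b*, *Tnfrsf11a*, *Tnfrsf14*, *Tnfrsf21*, *Cd40*, *Fas* and *Ltbr*. These 9 genes were among 18193 genes read on the arrays, and for each the probe set of highest mean log2 signal over the 12 arrays was taken. *Tnfrsf19* is in the set because the paper singles it out from work on these cells, so its values are no independent evidence of a change, and the others were chosen with earlier results of these data known.

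The cells were PMs of C57BL/6 mice, taken by peritoneal lavage and kept by adherence, with no sort by surface marker. A total of 12 Affymetrix mouse arrays fell into 6 groups of 2. PMs transfected with antagomir-21, an antisense oligonucleotide against miR-21, received exosomes whose source the labels describe as sensory neurons that overexpressed either miR-21 or a GFP reporter. PMs transfected with a scramble oligonucleotide received the same pair of exosomes, as did PMs labeled with lipofectamine, the transfection reagent, read here as cells given no oligonucleotide. No group went without exosomes, and the labels of the single GFP groups do not repeat that theirs were neuronal. The labels give 2 replicates per group and do not say whether these came from separate mice, so p-values measure only the spread between these arrays. The methods speak of triplicates.

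TNF receptors are membrane proteins that trimeric ligands of the TNF family bring together. Receptors with a death domain, such as the products of *Tnfrsf1a*, *Fas* and *Tnfrsf21*, can recruit adapters that lead to caspase activation, whereas TNFR2, CD40, RANK, HVEM and the lymphotoxin β receptor bind TRAF adapters and activate NF-κB. In macrophages, TNF acting on TNFR1 and TNFR2 drives much of the inflammatory response, and CD40 receives signals from T cells. TROY, the product of *Tnfrsf19*, is best known from the embryonic skin and the nervous system, where it can stand in for p75NTR in the Nogo receptor complex.

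Antagomir-21 and the miR-21 exosomes both concern the same small RNA, shown here as the molecule at which these treatments were aimed. Its seed, bases 2 to 8, is in capitals, and the sequence is from RefSeq (GRCm38.p6, chr11:86584120-86584141, minus strand). No level of the mature miRNA is analysed here.
mmu-miR-21a-5p: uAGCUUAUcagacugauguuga

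Through the probe set of highest mean, *Tnfrsf19* gave a dim and scattered signal, whereas *Tnfrsf1b* and *Cd40* were read brightly and steadily. The mean log2 signal of *Tnfrsf19* was 7.07 ± 1.89 (SD, n = 12 arrays), at percentile 30.6 of all genes. As a guide to what an unexpressed gene gives on these arrays, 70 olfactory and vomeronasal receptor genes had a median of 6.86 (quartiles 6.16 and 7.65), and 52.9% of them lay below *Tnfrsf19*. Signals of different probe sets are not comparable as RNA amounts, so these ranks describe signals alone.

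Among the other receptors, *Tnfrsf1b*, which encodes TNFR2, averaged 10.76 ± 0.56 (SD, n = 12), above all 70 sensory receptor genes. Its second probe set averaged 7.28 ± 1.97 (SD, n = 12), about as dim and scattered as *Tnfrsf19*. *Cd40*, the receptor for CD40 ligand, averaged 9.99 ± 0.58, and *Tnfrsf1a*, which encodes TNFR1, 9.15 ± 0.98 (SD, n = 12 each), above 95.7% and 91.4% of those genes. *Tnfrsf21*, which encodes death receptor 6, *Ltbr*, the lymphotoxin β receptor, and *Fas*, the receptor for Fas ligand, followed at 8.20 ± 0.75, 8.02 ± 1.15 and 7.95 ± 1.14 (SD, n = 12 each), each above 81.4% of the sensory receptor genes. *Tnfrsf11a*, which encodes RANK, the receptor that drives osteoclast formation, averaged 7.66 ± 1.85 (75.7% below it), and *Tnfrsf14*, which encodes HVEM, 6.04 ± 1.74 (21.4% below it; SD, n = 12 each). Neighbors in this order differed by less than the larger of their SDs, with the exception of *Tnfrsf1b* and *Cd40*.

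**Figure D1:**
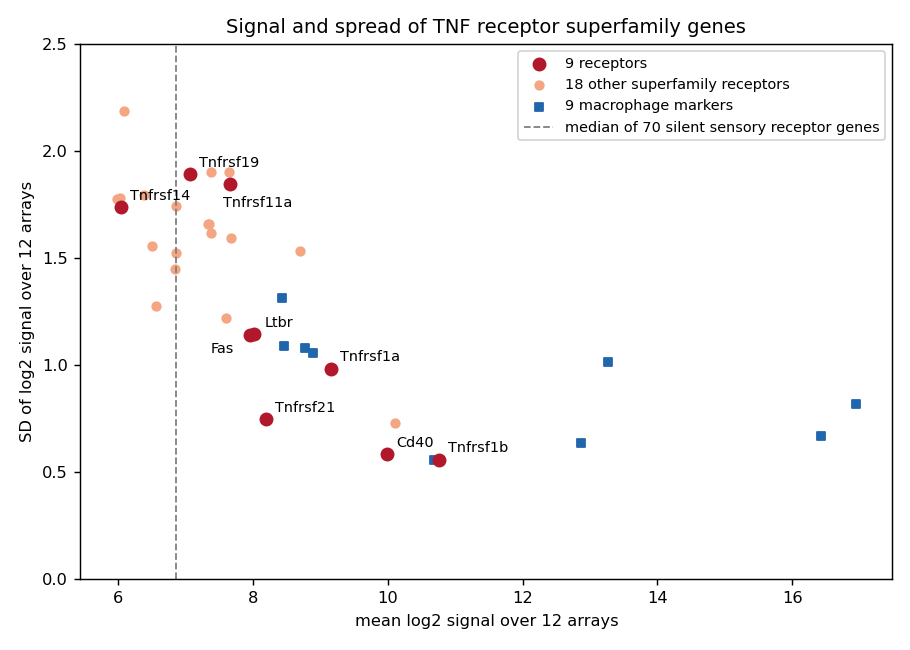
Mean log2 signal over 12 arrays (x axis) against its SD over the same arrays (y axis) for the 9 receptors, 18 other receptors of the superfamily and 9 macrophage markers; the dashed line is the median of 70 olfactory and vomeronasal receptor genes. *Tnfrsf19*, *Tnfrsf11a* and *Tnfrsf14* lie at the upper left with SDs of 1.74 to 1.89, and *Tnfrsf1b* and *Cd40* at the lower right of the receptors with SDs of 0.56 and 0.58.

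The spread followed the signal. The SD between arrays of the same group was 2.15 for *Tnfrsf19* and 2.07 for *Tnfrsf11a*, against 0.60 for *Tnfrsf1b*, 0.66 for *Cd40*, 0.69 for *Tnfrsf21* and 0.75 for *Tnfrsf1a*. *Fas* and *Ltbr* lay between, at 1.09 and 1.18. The sensory receptor genes had a median SD of 1.72 over the 12 arrays, and genes of about the same mean signal as *Tnfrsf19* 1.75, so its SD of 1.89 was ordinary for its signal. *Tnfrsf21*, with an SD of 0.75, was steadier than the median of genes of its signal (1.42).

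Of 9 macrophage markers, *Csf1r*, the receptor for the macrophage growth factor CSF1, averaged 16.43, *Lyz2* (lysozyme) 16.94 and *Adgre1*, a surface protein of mature macrophages, 12.87. *Cd68* averaged 13.27 and *Mertk* 10.68. *Timd4*, *Gata6*, *Itgam* and *Icam2* were lower, at 8.88, 8.78, 8.47 and 8.43. Of 5 B cell genes, *Ms4a1* and *Ighm* were also bright, at 12.41 and 11.89, whereas *Cd79b* and *Cd79a* were at 9.11 and 8.58 and *Pax5* at 5.96, below the median of the sensory receptor genes. Mast cell markers ranged from 6.39 (*Mcpt4*) to 10.02 (*Cpa3*) and fibroblast markers from 7.68 (*Col3a1*) to 9.79 (*Dcn*). Dendritic cell markers ranged from 4.86 (*Flt3*) to 10.70 (*Itgax*), and Schwann and satellite glia markers from 6.89 (*S100b*) to 10.70 (*Fabp7*). Arrays of the same group correlated no better than arrays of different groups (mean r of 0.591 within groups and 0.602 between groups), and array SDs ranged from 2.04 to 2.48. In bulk RNA, fewer cells of a type and less RNA per cell cannot be told apart.

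*Tnfrsf1a* was the only one of the 9 receptors past an unadjusted p of 0.05 when miR-21 exosomes were compared with GFP exosomes over the 3 transfections. With miR-21 exosomes its log2 signals were 9.63 and 7.30 after antagomir-21, 9.74 and 8.98 after scramble and 7.45 and 8.07 after lipofectamine. With GFP exosomes they were 9.65 and 9.95 after antagomir-21, 9.61 and 9.83 after scramble and 9.55 and 10.05 after lipofectamine. The 6 GFP arrays stayed within a narrow band, whereas 4 of the 6 miR-21 arrays lay below all of them and the other 2 overlapped with the GFP arrays.

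*Tnfrsf1a* averaged 8.53 ± 1.07 with miR-21 exosomes and 9.77 ± 0.20 with GFP exosomes (SD, n = 6 each), a log2 fold change of −1.24 (SE 0.55, 95% interval −2.47 to −0.01). The unadjusted p by limma was 0.0478 and the adjusted p over 18193 genes 0.913. An exact 2-sided permutation test that exchanged exosome labels within each transfection gave p = 0.0278, where 216 arrangements allow no p below 0.00926. The difference was −2.04 (SE 0.96) after lipofectamine, −1.34 (SE 0.96) after antagomir-21 and −0.36 (SE 0.96) after scramble, with unadjusted p of 0.0588, 0.193 and 0.717 by limma. These 3 differences were not shown to differ from each other (F test, unadjusted p = 0.486).

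The call on *Tnfrsf1a* was at the edge of the threshold. It was lost when any of 10 of the 12 arrays was left out (lowest unadjusted p = 0.0524, highest unadjusted p = 0.114 by limma), and it held without replicate 1 of antagomir-21 with miR-21 exosomes (unadjusted p = 0.00886) or without replicate 1 of scramble with miR-21 exosomes (unadjusted p = 0.0443). It was also lost with the replicate number as a block (unadjusted p = 0.0630 by limma) and in the fit over every probe set (unadjusted p = 0.0622 by limma). Without replicate 2 of antagomir-21 with miR-21 exosomes, the lowest array, the log2 fold change was −0.85.

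*Tnfrsf1b*, the other TNF receptor, followed *Tnfrsf1a* from array to array. Its log2 signals with miR-21 exosomes were 11.24 and 9.28 after antagomir-21, 10.71 and 10.61 after scramble and 10.65 and 10.38 after lipofectamine. With GFP exosomes they were 11.05 and 11.25 after antagomir-21, 11.08 and 11.17 after scramble and 10.54 and 11.16 after lipofectamine. It averaged 10.48 ± 0.65 with miR-21 exosomes and 11.04 ± 0.26 with GFP exosomes (SD, n = 6 each), and the log2 fold change of −0.57 (95% interval −1.71 to 0.58) did not pass the test (unadjusted p = 0.298, exact permutation p = 0.0556). Across the 12 arrays, *Tnfrsf1a* and *Tnfrsf1b* had a Pearson r of 0.798 and a Spearman rho of 0.811, the highest among the 36 pairs of receptors, as a description. Replicate 2 of antagomir-21 with miR-21 exosomes was the lowest array for both, and without it the log2 fold change of *Tnfrsf1b* was −0.24, against −0.89 without replicate 1 of that group. The second and dimmer probe set of *Tnfrsf1b* had a log2 fold change of 0.53 in the same comparison, the opposite direction.

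*Tnfrsf19* did not differ between the exosomes beyond its spread. With miR-21 exosomes its log2 signals were 3.64 and 7.98 after antagomir-21, 6.12 and 9.08 after scramble and 5.93 and 8.71 after lipofectamine. With GFP exosomes they were 7.81 and 3.73 after antagomir-21, 8.91 and 8.11 after scramble and 8.24 and 6.53 after lipofectamine. Replicates of one group were up to 4.34 apart, and the groups overlapped. The means were 6.91 ± 2.07 with miR-21 exosomes and 7.22 ± 1.88 with GFP exosomes (SD, n = 6 each), a log2 fold change of −0.31 (SE 1.05, 95% interval −2.64 to 2.02, unadjusted p = 0.775, exact permutation p = 0.824). An interval of this width holds changes of 4-fold in either direction.

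**Figure D2:**
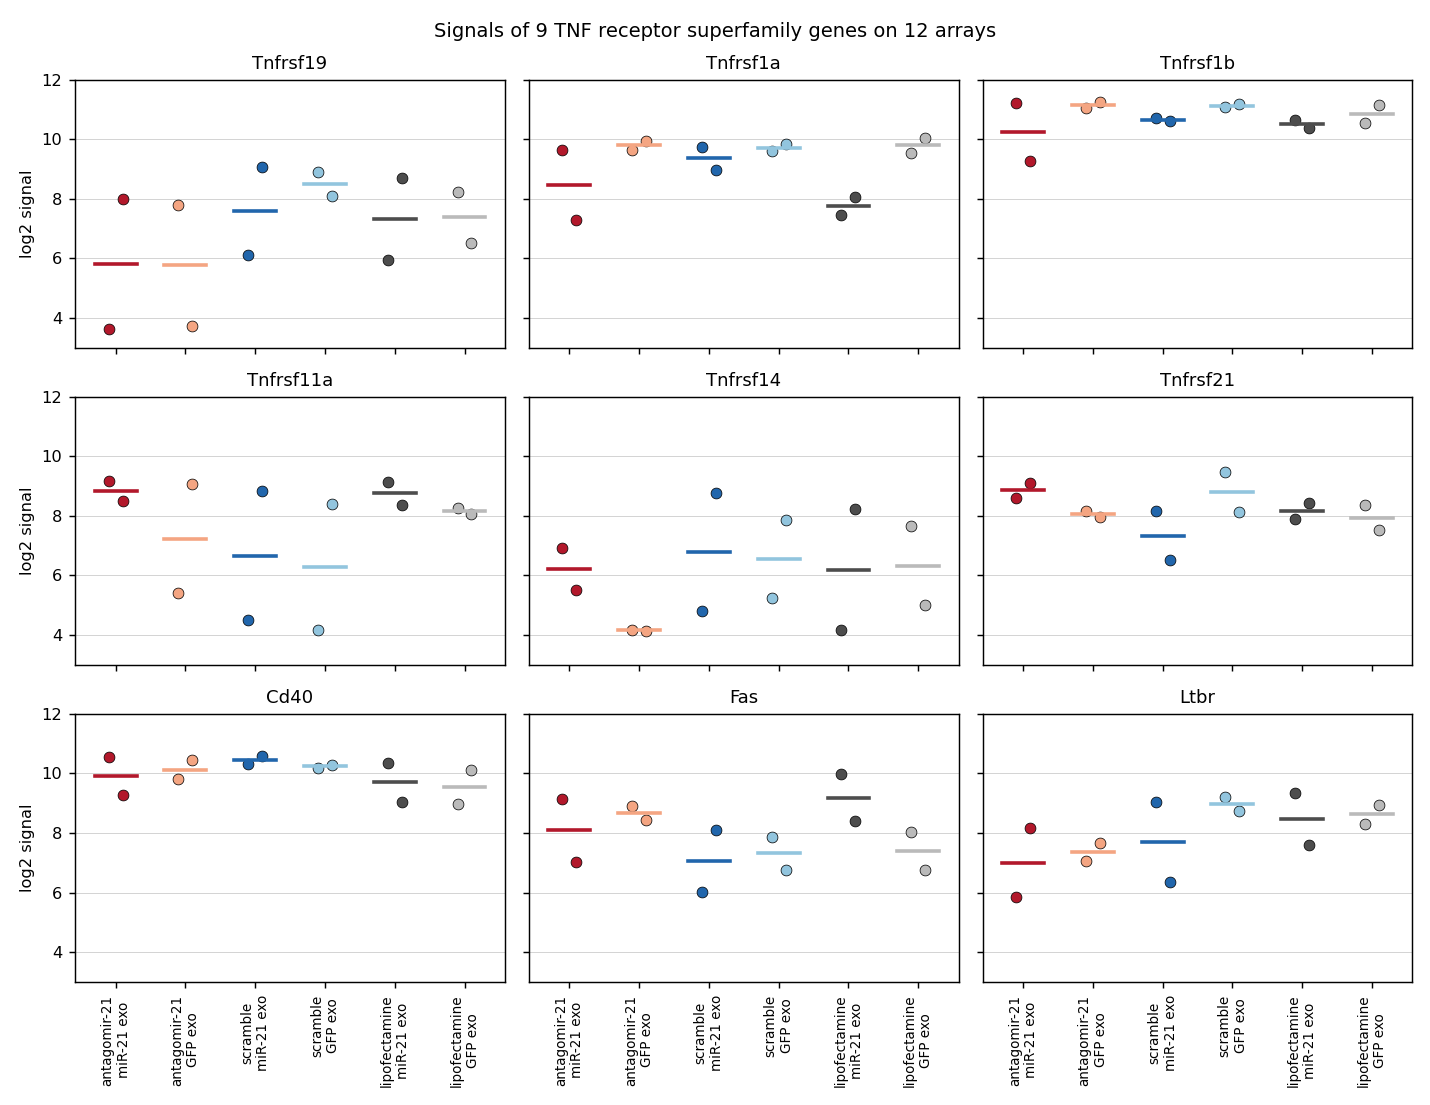
Log2 signal (y axis) of the 9 receptors on each of 12 arrays, by group (x axis); points are arrays and lines the means of 2. *Tnfrsf1a* is between 9.55 and 10.05 on the 6 GFP arrays and down to 7.30 on the miR-21 arrays, whereas the 2 arrays of *Tnfrsf19* with antagomir-21 and miR-21 exosomes are at 3.64 and 7.98.

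The remaining receptors did not pass the test for the exosomes. *Tnfrsf11a* averaged 8.09 ± 1.79 with miR-21 and 7.23 ± 1.97 with GFP exosomes, and *Tnfrsf14* 6.40 ± 1.88 with miR-21 and 5.68 ± 1.67 with GFP exosomes (SD, n = 6 each). *Ltbr* averaged 7.72 ± 1.41 with miR-21 and 8.31 ± 0.83 with GFP exosomes, and *Fas* 8.11 ± 1.43 with miR-21 and 7.79 ± 0.88 with GFP exosomes (SD, n = 6 each). *Cd40* and *Tnfrsf21* differed least, with log2 fold changes of 0.05 (95% interval −1.13 to 1.22) and −0.15 (95% interval −1.35 to 1.04).

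In this comparison 1 of 9 receptors was called, against 5.45% of all genes at an unadjusted p under 0.05. Calls in the lower direction made up 1.45% of genes. At an adjusted p under 0.05, 0% of genes and 0 receptors were called (limma, lowest adjusted p 0.359). The 6 miR-21 arrays overlapped with the 6 GFP arrays for all 9 receptors, whereas they stood apart for 0.286% of genes.

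Within each transfection, where 2 arrays met 2, no receptor was called. The shares of all genes at an unadjusted p under 0.05 were 5.68% after antagomir-21, 5.7% after scramble and 3.84% after lipofectamine, and 4.94% for the test that the exosome effect differed between transfections. At an adjusted p under 0.05 the share was 0% in each of these 4 tests. *Tnfrsf19* differed by 0.04, −0.91 and −0.06 on the log2 scale after antagomir-21, scramble and lipofectamine (SE 1.82 each), and *Fas* had its widest difference after lipofectamine (9.19 with miR-21 and 7.40 with GFP exosomes, log2 fold change 1.79, SE 1.13, unadjusted p = 0.145).

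**Figure D3:**
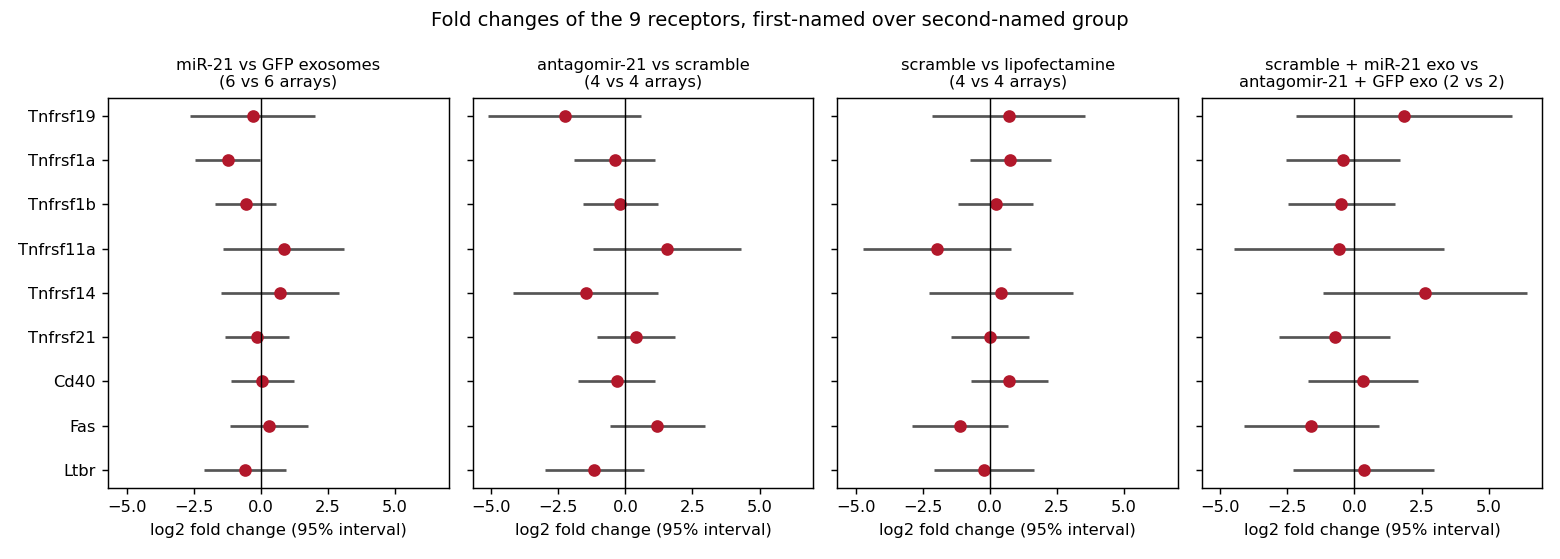
Log2 fold changes of the 9 receptors (x axis, first-named over second-named group; points, with 95% intervals from limma as lines) in 4 comparisons. The interval of *Tnfrsf1a* for miR-21 against GFP exosomes, −2.47 to −0.01, is the only one of the 36 that does not reach 0.

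Antagomir-21 was compared with scramble over both exosomes, to ask what silencing miR-21 did to the receptors. *Tnfrsf19* had the largest difference of the 9. Its arrays were at 3.64, 7.98, 7.81 and 3.73 after antagomir-21 and at 6.12, 9.08, 8.91 and 8.11 after scramble. The 2 lowest values of all 12 arrays were antagomir-21 arrays, 1 with each exosome, and the other 2 antagomir-21 arrays overlapped with scramble. The means were 5.79 ± 2.43 after antagomir-21 and 8.06 ± 1.36 after scramble (SD, n = 4 each), a log2 fold change of −2.27 (SE 1.28, 95% interval −5.12 to 0.58) with an unadjusted p of 0.107 and an adjusted p of 0.992 by limma.

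This value for *Tnfrsf19* depended on single arrays. By limma it was −3.28 (unadjusted p = 0.0313) without replicate 1 of antagomir-21 with GFP exosomes and −3.35 (unadjusted p = 0.0294) without replicate 2 of antagomir-21 with miR-21 exosomes, the 2 arrays at which antagomir-21 overlapped with scramble. By limma it was −1.25 (unadjusted p = 0.363) without replicate 2 of antagomir-21 with GFP exosomes, −1.18 (unadjusted p = 0.383) without replicate 1 of antagomir-21 with miR-21 exosomes and −1.52 (unadjusted p = 0.314) without replicate 2 of scramble with miR-21 exosomes.

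The other receptors differed by less. *Tnfrsf11a* averaged 8.04 ± 1.78 after antagomir-21 and 6.48 ± 2.49 after scramble (SD, n = 4 each). *Tnfrsf14* averaged 5.19 ± 1.33 after antagomir-21 and 6.67 ± 1.94 after scramble, and *Fas* 8.38 ± 0.94 after antagomir-21 and 7.19 ± 0.98 after scramble (SD, n = 4 each). *Ltbr* differed by −1.15 (SE 0.84), and none of these passed the test. *Tnfrsf1a* differed by −0.41 (95% interval −1.91 to 1.10) and *Tnfrsf1b* by −0.19 (95% interval −1.59 to 1.21). No receptor was called, against 5.16% of all genes at an unadjusted p under 0.05 and 0% at an adjusted p. For 1.97% of genes the 4 antagomir-21 and 4 scramble arrays did not overlap, and none of the 9 receptors was among them.

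Scramble against lipofectamine asks what the scramble oligonucleotide did, beside cells read as given no oligonucleotide. *Tnfrsf11a* had the widest difference, with arrays at 4.50, 8.83, 4.16 and 8.41 after scramble and at 9.15, 8.36, 8.27 and 8.05 after lipofectamine. Replicate 1 of each scramble group was low and replicate 2 was within the lipofectamine range, so the fold change of −1.98 (SE 1.24, unadjusted p = 0.142) rested on 2 arrays. By limma it was −0.90 without replicate 1 of scramble with miR-21 exosomes, −0.92 without replicate 1 of scramble with GFP exosomes, −3.06 (unadjusted p = 0.0361) without replicate 2 of scramble with miR-21 exosomes and −3.04 (unadjusted p = 0.0363) without replicate 2 of scramble with GFP exosomes. The other probe set of *Tnfrsf11a* had the opposite direction, with log2 fold changes of 1.14 here and −0.96 for antagomir-21 against scramble. *Tnfrsf19* averaged 8.06 ± 1.36 after scramble and 7.35 ± 1.33 after lipofectamine (SD, n = 4 each; log2 fold change 0.70, SE 1.28, unadjusted p = 0.596). No receptor was called, against 4.14% of genes at an unadjusted p under 0.05 and 0% at an adjusted p, and arrays of none of the 9 stood apart, as they did for 2.08% of genes.

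PMs given scramble and miR-21 exosomes were compared with PMs given antagomir-21 and GFP exosomes, groups that differ in both the oligonucleotide and the exosomes. *Tnfrsf19* was at 6.12 and 9.08 in scramble with miR-21 exosomes and at 7.81 and 3.73 in antagomir-21 with GFP exosomes. The 2 pairs overlapped, and the log2 fold change of 1.83 (SE 1.82, 95% interval −2.20 to 5.87) had an unadjusted p of 0.336. *Tnfrsf14* had the largest difference, 2.63 (SE 1.71, unadjusted p = 0.156), with 4.80 and 8.76 in scramble with miR-21 exosomes and 4.16 and 4.15 in antagomir-21 with GFP exosomes. By limma it was 4.61 (unadjusted p = 0.04) without replicate 1 of scramble with miR-21 exosomes and 0.65 (unadjusted p = 0.743) without replicate 2. Of the 9 receptors 0 were called, against 7.17% of genes at an unadjusted p under 0.05 and 0% at an adjusted p.

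Probe sets for one gene often did not read alike. *Tnfrsf19* had 3 probe sets, with means of 7.07 for the brightest, used above, 6.85 for the middle one and 5.98 for the dimmest, and the Pearson r between pairs of them over the 12 arrays was 0.32, −0.04 and 0.34. Without the 2 arrays farthest from the median of the brighter probe set of each pair, the r was 0.21, −0.03 and −0.10. In antagomir-21 with miR-21 exosomes, the middle probe set was at 3.56 and 3.64 and the dimmest at 4.03 and 2.97, where the brightest was at 3.64 and 7.98. In antagomir-21 with GFP exosomes, the middle one was at 8.66 and 7.86, the dimmest at 5.09 and 8.28 and the brightest at 7.81 and 3.73. All 3 were low on replicate 1 of antagomir-21 with miR-21 exosomes, and they differed in which other arrays were low.

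All 3 probe sets of *Tnfrsf19* had lower means after antagomir-21 than after scramble, with log2 fold changes of −2.27, −1.98 and −2.11 (unadjusted p of 0.106, 0.0964 and 0.134 in the fit over all probe sets). Their mean differed by −2.12 (unadjusted p = 0.0132 by limma), in a fit where no gene passed an adjusted p of 0.05. The drop of the middle probe set lay in the miR-21 exosome arrays, at 3.56 and 3.64 after antagomir-21 and 7.80 and 8.44 after scramble. With GFP exosomes the middle probe set was at 8.66 and 7.86 after antagomir-21 and at 8.85 and 6.56 after scramble. Between miR-21 and GFP exosomes over all transfections the 3 gave −0.31, −1.35 and −0.99, none with an unadjusted p below 0.159. Between miR-21 and GFP exosomes, after antagomir-21, the 3 gave 0.04, −4.66 and −3.19, of which that of the middle one had an unadjusted p of 0.0117 and an adjusted p of 0.596. Between scramble plus miR-21 exosomes and antagomir-21 plus GFP exosomes they gave 1.83, −0.14 and 0.20, so the direction there was not shared.

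**Figure D4:**
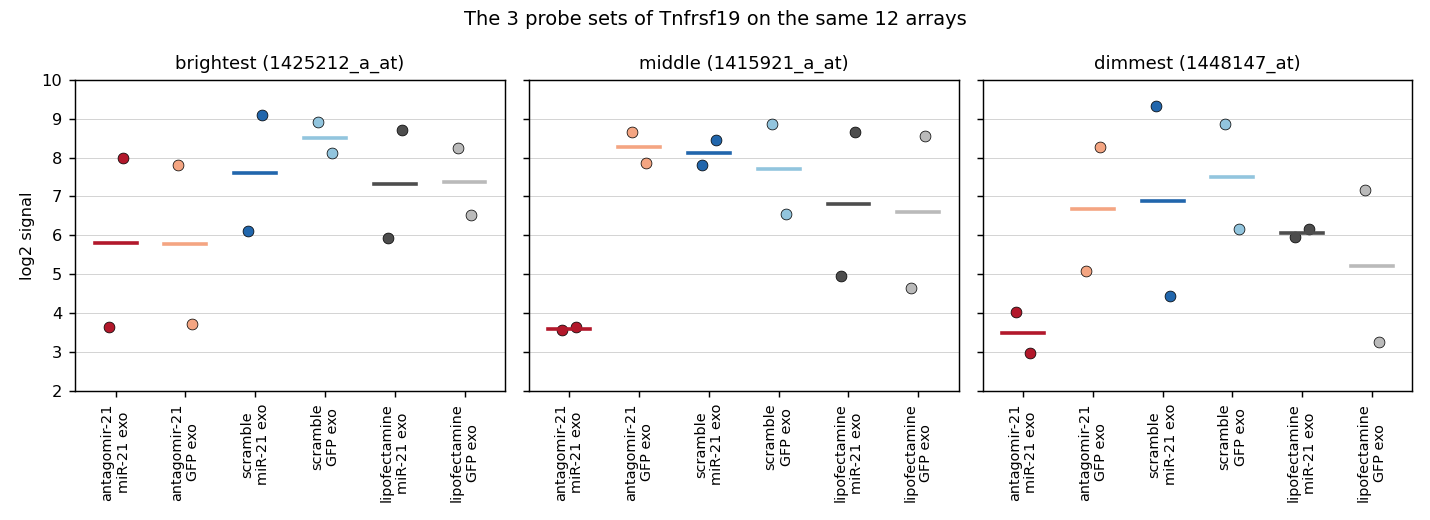
Log2 signal (y axis) of the 3 *Tnfrsf19* probe sets on the same 12 arrays, by group (x axis); points are arrays and lines the means of 2. The middle and dimmest probe sets are at 2.97 to 4.03 on both arrays of antagomir-21 with miR-21 exosomes, whereas the brightest reads 7.98 on 1 of them.

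Of the other receptors, *Cd40* had 3 probe sets, of which the brightest pair had an r of 0.69 over the 12 arrays, whereas the third, with a mean of 8.84, had an r of 0.02 and 0.09 with them. The r was 0.52 for *Tnfrsf1b*, −0.19 for *Tnfrsf11a* and −0.18 for *Tnfrsf21*, which had 2 probe sets each, and without the 2 arrays farthest from the brighter probe set's median it was 0.12 for *Tnfrsf1b* and 0.14 for *Tnfrsf11a*. Over 9010 genes with several probe sets the median r of the brightest pair was 0.07, and it was 0.55 for the 667 genes whose dimmer probe set averaged at least 10. *Tnfrsf1a*, *Tnfrsf14*, *Fas* and *Ltbr* had 1 probe set each.

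The genes whose signals most resembled that of *Tnfrsf19* over the 12 arrays were *Zfp637* (Pearson r = 0.96), *Ptger3* (0.95), *Pcdh19* (0.94), *Tmem100* (0.93) and *Traf5* (0.92). All were dim, with means of 6.42 to 7.56, and they are the highest of 18193 genes set against 12 points that share arrays and scaling. Of the other 8 receptors, *Tnfrsf14* had the highest r with it (Pearson r = 0.46, Spearman rho = 0.66) and *Cd40* the lowest (Pearson r = −0.48).

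Other genes of the pathway were counted in the same fit, where 5.45% of all genes were called for the exosomes, so that single calls in lists of this size are near the share over all genes. Of 18 other superfamily receptors, 1 was higher and 0 lower with miR-21 than GFP exosomes at an unadjusted p under 0.05: *Relt*, at 7.37 with miR-21 and 5.40 with GFP exosomes (log2 fold change 1.97, adjusted p = 0.897 by limma). Of 14 ligands, *Tnfsf4*, which encodes OX40 ligand, was higher (8.92 with miR-21 and 7.57 with GFP exosomes, log2 fold change 1.34, unadjusted p = 0.0224, adjusted p = 0.840 by limma), and *Tnf* was at 7.57 with miR-21 and 7.71 with GFP exosomes. Of 22 adapters and proximal signaling proteins 0 were called, 17 had negative and 5 positive fold changes, and the median was −0.34, beside −0.02 over all genes. Of 16 TNF and NF-κB response genes 0 were called and 14 had negative fold changes, with a median of −0.68. Among these were *Il1b*, which encodes IL-1β (log2 fold change −1.39, SE 0.67, unadjusted p = 0.0639), and *Cxcl10*, an interferon-induced chemokine (−1.43, SE 0.85, unadjusted p = 0.122), both by limma.

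After scramble, *Il1b* was at 6.48 with miR-21 and 9.18 with GFP exosomes and *Cxcl2*, a neutrophil chemokine, at 9.69 with miR-21 and 11.78 with GFP exosomes, and both were called at an unadjusted p under 0.05 (0.0422 and 0.0301 by limma, adjusted p of 0.857 and 0.810). They were 2 of 16 response genes, against 5.7% of all genes, and 4 of 6 T and NK cell markers were called in the same comparison, 3 higher and 1 lower. The part of those cells in these values was not tested. For antagomir-21 against scramble, *Tnfrsf13b*, which encodes TACI, a receptor of B cells, was higher by 2.34, the ligands *Lta* and *Cd40lg* by 2.02 and 2.52, and the adapter *Traf1* was lower (log2 fold change −2.09), each at an unadjusted p under 0.05 and an adjusted p of 0.924 or more. These were 1 of 18 receptors, 2 of 14 ligands and 1 of 22 adapters and signaling proteins, against 5.16% of all genes. *Lta* and *Cd40lg* averaged 5.93 and 5.85 over the 12 arrays, below the median of the sensory receptor genes (6.86). *Tnfrsf13b* and *Traf1* averaged 7.67 and 7.37, above it. The 4 genes of the Nogo receptor complex, which TROY can join, had 0 calls.

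Some genes of other cells also passed the unadjusted threshold in the same comparisons. Those called, *Pax5*, *Ncr1*, *Krt8* and *Prph*, averaged 5.96, 6.40, 6.68 and 6.11 over the 12 arrays, below the median of the sensory receptor genes (6.86). With miR-21 exosomes, *Pax5* of B cells was higher (7.53 with miR-21 and 4.39 with GFP exosomes), as were *Ncr1* of NK cells (7.35 with miR-21 and 5.44 with GFP exosomes) and *Krt8* of mesothelium (7.68 with miR-21 and 5.68 with GFP exosomes), each at an unadjusted p under 0.05 and an adjusted p of 0.657 or more. These were 1 of 5 B cell, 1 of 6 T and NK cell and 1 of 6 mesothelial markers, against 5.45% of all genes. The other B cell markers gave −0.83 for *Cd79b*, −0.25 for *Cd79a*, −0.09 for *Ms4a1* and 0.55 for *Ighm*, and the median of the 5 was −0.09. Fold changes were positive for 5 of 6 T and NK cell markers (median 0.43) and 5 of 6 mesothelial markers (median 1.36), beside a median of −0.02 over all genes. The mean signals of these 3 lists over the arrays ranged from 9.01 to 10.83, from 5.53 to 8.27 and from 5.52 to 8.13. After antagomir-21, *Krt8* (5.07, against 8.07 after scramble) and *Prph* of sensory neurons (4.92, against 7.54 after scramble) were lower, 1 of 6 markers each, against 5.16% of all genes. Fold changes were negative for 5 of 6 sensory neuron markers (median −1.78) and 4 of 6 mesothelial markers (median −0.48), beside −0.004 over all genes. Macrophage markers had 0 of 9 calls in both comparisons and a mean signal of 10.61 to 12.18. Their fold changes were positive for 6 of 9 for antagomir-21 against scramble (median 0.62). For miR-21 against GFP exosomes they were positive for 4 of 9 (median −0.13). The part of these cells in the receptors' values was not tested.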

How the data were processed

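Expression was measured in PMs on 12 arrays, with groups and replicate numbers as the sample labels give them. Values are log2 signals, 1 per probe set and array, as the authors deposited them. The methods describe RMA with quantile normalization, but the deposited arrays share only a trimmed linear mean (496.2 to 498.5 with 2% removed at each end) and not a distribution, so they were used as deposited, from 0 to 19.26. Labels and methods name different amplification kits (NuGEN and WT Pico). No background level is known, and the number of arrays limits the precision.

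Of 45037 probe sets, 34945 were kept because the platform annotation pairs them with 1 symbol, while 932 with several symbols and 9160 absent from it were left out. Symbols of 34741 were updated through the gene ID. The probe set with the highest mean stood for each of 18193 genes.

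A linear model of the 6 group means was fitted with limma 3.58.1 (lmFit, eBayes; R 4.3.3), leaving 6 residual degrees of freedom, with Benjamini-Hochberg adjustment over all genes, and was tested on simulated data. The methods' threshold, an unadjusted p of 0.05, and an adjusted p of 0.05 were both counted. Intervals are 95% intervals of the fit. Exact permutation tests used Python 3.11.15. Alternatives were quantile normalization, median centring, the mean of all probe sets, every probe set, genes above the median signal, a floor at a log2 signal of 5, the replicate block, the compared arrays alone, an unpaired 2-group test, and leaving out each array. The paper names an unpaired t test under its general statistics, whereas its array methods name the affy package. The text names all 9 receptors, up to 4 genes of each pathway list under an unadjusted p of 0.05 and the 5 genes most like *Tnfrsf19*. All macrophage markers, *Ms4a1*, *Ighm*, *Cd79a*, *Cd79b*, *Tnf*, *Il1b* and *Cxcl10* over all transfections were named after their values were seen. So were the lowest and highest mast cell, fibroblast, dendritic cell and glia markers. The receptors and lists were chosen with earlier results of these data known. Other arrays of the paper are not analysed here.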

Additional observations from a re-analysis of the deposited data

Results flagged for a closer look

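The effect of miR-21 exosomes on the second probe set of *Tnfrsf21*, which encodes death receptor 6, passed the unadjusted threshold of the test for a difference between transfections (F test over the 3 transfections, unadjusted p = 0.0443, adjusted p = 0.960 by limma over all probe sets). No other probe set of the receptors did. In the separate fit of 1 probe set per gene 4.94% of all genes passed, and the share over all probe sets is not given here. After lipofectamine the second probe set of *Tnfrsf21* read 4.59 and 5.28 with miR-21 exosomes and 8.57 and 8.19 with GFP exosomes, a difference of −3.45 on the log2 scale (SE 1.14). It was −0.54 after antagomir-21 and 1.15 after scramble (SE 1.14 each). The brighter probe set of the gene gave 0.22, 0.79 and −1.48 after lipofectamine, antagomir-21 and scramble (SE 1.01 each), and its own F test had an unadjusted p of 0.297. Groups of 2 arrays are too small for a test of single outlying arrays.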

How the results depend on the processing

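Fold changes of the receptors turned sign in 10 cases under another processing of all arrays, none past an unadjusted p of 0.05 but the mean of the *Tnfrsf19* probe sets after antagomir-21 (unadjusted p = 0.0263 by limma). Between miR-21 and GFP exosomes, after antagomir-21, *Tnfrsf19* gave −0.39 with quantile normalization, −0.0566 with median centring and −2.60 with the mean of its probe sets, and after lipofectamine 0.32 and 0.33 with quantile normalization and the mean. *Cd40* gave −0.23 with median centring and −0.0459 with the mean of probe sets for the exosomes over all transfections. *Tnfrsf21* gave −0.052 for scramble against lipofectamine with median centring. With the mean of probe sets, *Tnfrsf1b* gave 0.0504 for antagomir-21 against scramble and *Tnfrsf11a* 0.11 for scramble plus miR-21 exosomes against antagomir-21 plus GFP exosomes. Median centring shifts all genes of a comparison by one amount, which by itself turned the sign of the 3 followed values under it. For the other 7 the cause was not tested.

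Median centring moved the median of all genes for miR-21 against GFP exosomes to −0.30, against −0.02 as deposited, and the share of calls that were higher to 45.4%, against 73.5% as deposited and 58.5% with quantile normalization. *Tnfrsf1a* kept its direction and its unadjusted call by limma in both (−1.36 and unadjusted p = 0.0405 with quantile normalization, −1.52 and unadjusted p = 0.0282 with centring). With centring, 16 of 16 TNF and NF-κB response genes were below 0, and the median of the 18 other receptors was −0.03, against 0.25 as deposited.

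With the replicate block, 0 receptors were called for the exosomes over all transfections (*Tnfrsf1a*, unadjusted p = 0.0630 by limma), and the block changed no other receptor's call. Equal replicate numbers did not mark arrays that deviate together, since 15 correlations between groups, after group means were removed, ranged from −0.192 to 0.167. In the fit over every probe set 0 were called as well (*Tnfrsf1a*, unadjusted p = 0.0622 by limma). After lipofectamine 1 receptor was called with median centring, with the mean of probe sets, among genes above the median signal, with the compared arrays alone and with the unpaired test. The mean of probe sets also called *Tnfrsf19* for antagomir-21 against scramble and after antagomir-21. The unpaired test called *Tnfrsf1b* for scramble plus miR-21 exosomes against antagomir-21 plus GFP exosomes. It called 1 receptor after scramble, where it also called 1 gene at an adjusted p. As deposited, the shares of all genes called by limma were 3.84% after lipofectamine, 5.68% after antagomir-21 and 5.7% after scramble. They were 5.16% for antagomir-21 against scramble and 7.17% for scramble plus miR-21 exosomes against antagomir-21 plus GFP exosomes. These are shares of the main fit. Those of the alternative fits that made the calls are not given here, except for genes above the median signal. By the exact permutation test 2 receptors were called with median centring. That test was run on the receptors alone, so it has no share of all genes. Among genes above the median signal, which leaves fewer dim genes, the share called was 3.43% for the exosomes, 3.23% for antagomir-21 against scramble, 2.65% after antagomir-21, 2.32% after lipofectamine and 2.59% for the exosome effect by transfection.

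Leaving out single arrays moved the share of genes called between 3.79% and 8.79% for the exosomes, 3.96% and 8.45% for antagomir-21 against scramble, 2.7% and 6.9% for scramble against lipofectamine, 2.15% and 9.94% after lipofectamine, and 3.53% and 8.51% for the effect by transfection. Receptors called ranged from 0 to 1 in 6 comparisons, were 0 throughout after scramble and for the effect by transfection, and ranged from 0 to 2 by the exact test. For the exosomes, log2 fold changes ranged from −1.03 to 0.42 for *Tnfrsf19*, −0.43 to 0.12 for *Tnfrsf21*, −0.17 to 0.27 for *Cd40* and −0.0368 to 0.67 for *Fas*. For antagomir-21 against scramble they ranged from −0.99 to 0.18 for *Tnfrsf1a*, −0.68 to 0.30 for *Tnfrsf1b* and −0.0184 to 0.80 for *Tnfrsf21*. For scramble against lipofectamine they ranged from −0.0394 to 1.44 for *Tnfrsf19*, −0.61 to 1.43 for *Tnfrsf14*, −0.40 to 0.42 for *Tnfrsf21* and −0.88 to 0.46 for *Ltbr*. For scramble plus miR-21 exosomes against antagomir-21 plus GFP exosomes they ranged from −0.20 to 3.87 for *Tnfrsf19*, −2.73 to 1.59 for *Tnfrsf11a*, −1.55 to 0.0845 for *Tnfrsf21* and −0.99 to 1.69 for *Ltbr*. *Tnfrsf19* ranged from −2.13 to 2.21 after antagomir-21, −2.39 to 0.58 after scramble and −1.45 to 1.33 after lipofectamine.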
